A study of Mus musculus with 18 samples.

Results

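The genes described here are 9 genes that mark the hepatocytes around the central vein of the liver lobule or answer to Wnt/β-catenin signaling: *Glul*, *Oat*, *Slc1a2*, *Rhbg*, *Axin2*, *Lgr5*, *Tbx3*, *Rnf43* and *Tcf7l2*. They were chosen by symbol, 9 of the 23352 gene symbols in the deposited tables. All 9 had a valid value in every library and a mean of at least 1 FPKM (a read share divided by the length of the transcript and the depth of the library), so all 9 were among the 10783 genes tested. Liver poly(A) RNA was compared between 9 wild-type and 9 *Gpr180*KO mice, 1 library per mouse, to see how loss of GPR180, a G protein-coupled receptor-like membrane protein, alters the liver under high-fat diet (HFD). All 18 were males of 20 weeks on HFD for the last 12 weeks. The *Gpr180*KO mice lack exon 6 of *Gpr180* in every cell of the body after CRISPR/Cas9 editing with a pair of guides in the flanking introns, and a truncated transcript remains. They and the wild-type controls descend from heterozygous founders that had been backcrossed repeatedly, so a difference between the genotypes may include differences carried over from a founder. The labels do not say how many founders or litters the 18 mice represent.

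Hepatocytes do different work along the line from portal to central vein. Those around the central vein receive Wnt ligands and R-spondin 3 from the neighbouring endothelium, and β-catenin with its TCF partners keeps on their set of genes. This set includes enzymes and transporters that clear the remaining ammonia and glutamate from the blood as glutamine. Another portion of the response consists of feedback genes such as *Axin2* and *Rnf43*, which restrain the Wnt pathway wherever it is active and are read as gauges of it.

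The stretches just before 4 transcription starts are shown because they belong to the leading pericentral enzyme, to a leading feedback gene and to the only windows of these genes that held the core letters of a TCF/LEF site. Each line gives the 250 bases before a RefSeq start in the GRCm38.p6 assembly (mm10), 5′ to 3′ in the direction of the gene, with the core CTTTGA or CTTTGT, or its reverse complement, in capitals.
Glul, chr1:153899679-153899928, + strand: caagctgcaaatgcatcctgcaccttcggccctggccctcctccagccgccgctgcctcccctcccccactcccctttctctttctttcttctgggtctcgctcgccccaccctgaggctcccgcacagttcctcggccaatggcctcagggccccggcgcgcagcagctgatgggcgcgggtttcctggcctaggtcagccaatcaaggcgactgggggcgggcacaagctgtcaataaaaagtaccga
Axin2, chr11:108920099-108920348, + strand: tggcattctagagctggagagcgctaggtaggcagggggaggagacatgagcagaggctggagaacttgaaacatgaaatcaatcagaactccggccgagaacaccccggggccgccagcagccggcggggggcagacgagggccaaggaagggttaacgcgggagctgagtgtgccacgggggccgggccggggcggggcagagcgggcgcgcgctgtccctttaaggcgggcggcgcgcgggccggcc
Slc1a2, chr2:102706188-102706437, + strand: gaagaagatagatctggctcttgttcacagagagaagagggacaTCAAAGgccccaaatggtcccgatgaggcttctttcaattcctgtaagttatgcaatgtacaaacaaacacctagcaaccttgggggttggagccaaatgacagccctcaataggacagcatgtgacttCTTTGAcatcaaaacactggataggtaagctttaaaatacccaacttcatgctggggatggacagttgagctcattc
Tcf7l2, chr19:55895071-55895320, + strand: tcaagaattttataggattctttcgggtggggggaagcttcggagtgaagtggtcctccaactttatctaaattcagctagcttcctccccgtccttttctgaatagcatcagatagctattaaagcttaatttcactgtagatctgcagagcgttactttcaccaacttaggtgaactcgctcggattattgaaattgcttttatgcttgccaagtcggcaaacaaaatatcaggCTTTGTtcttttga
The *Slc1a2* window held CTTTGA once on each strand, beginning 206 and 77 bases before the start. The *Tcf7l2* window shown held CTTTGT once, beginning 14 bases before its start. The other *Tcf7l2* window, chr19:55741560-55741809, just before the span of the gene given below, held 0 matches. The *Slc1a2* and *Tcf7l2* windows shown lie inside the spans of these genes given below, so they belong to internal starts. RefSeq windows were at hand for 6 of the 9 genes (8 windows), and 2 of these 8 had a match. Of all 32851 windows of the same length, 13.8% held CTTTGA on either strand, 16.5% held CTTTGT and 27.6% held at least 1 of them; the last letter differs, so no site is counted for both. The windows of *Glul* (64.8% G and C), *Axin2* (69.2%) and *Oat* (60.0%) lay above the median of all windows (52.4%). Those of *Slc1a2* (44.8%) and *Rnf43* (44.4% and 45.2%) lay below it. For *Tcf7l2* the window shown lay below it (40.8%) and the other above it (72.8%). *Rhbg*, *Lgr5* and *Tbx3* had no entry.

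Over the genes with valid values, the FPKM of wild-type livers summed to between 518532 and 550389. Relative depth was estimated from the most common ratio of low FPKM values to those of the wild-type liver W317HFD. It was 60.7 to 100% of the deepest library in wild-type and 44.2 to 93.3% in *Gpr180*KO livers. The *Gpr180*KO liver KOhfd51 stood apart, with a sum of 712982 and a median correlation of 0.929 with the other livers of its genotype, against 0.956 to 0.970 for the other 17 livers. Sample titles come in 2 styles, style 1 (W317HFD or KO319HFD; 4 mice per genotype) and style 2 (WThfd131 or KOhfd51; 5 mice per genotype). The labels give the styles no meaning, so each comparison was also made within them as a possible batch. *Gpr180* itself had means of 6.79 ± 1.99 and 1.60 ± 0.37 FPKM (SD, n = 9 each) in the 2 genotypes, and every *Gpr180*KO liver lay below every wild-type liver. The test was limma on log2(FPKM + 0.1), a scale that understates the change of low genes, and p-values were adjusted over the whole table by the Benjamini-Hochberg method. The median gene differed by -0.13 on this scale, and the *Gpr180*KO mean was the lower for 77.1% of all genes. Median-of-ratios scaling, which sets the median gene of each library level, brought the median to -0.01.

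Of the 9 genes, *Rhbg* fell in *Gpr180*KO livers and the other 8 did not pass the test at an adjusted p of 0.05. Over all genes, 4.79% passed in either direction and 4.33% passed as lower (467 lower and 49 higher, and after median-of-ratios scaling 169 lower and 111 higher, where 2.6% passed, 1.57% as lower and 1.03% as higher). An unadjusted p under 0.05 was seen for 3 of the 9, *Rhbg*, *Glul* and *Tbx3*, and for 22.2% of all genes. No gene of the 9 was free of overlap between the genotypes over all 18 livers, as was true, with *Gpr180*KO lower, of 0.176% of all genes. The *Gpr180*KO mean was the lower for 8 of the 9 genes, beside 77.1% of all genes. Their median log2 difference was -0.36 beside -0.13 for all genes. After median-of-ratios scaling the medians were -0.24 and -0.01, and none of the 9 passed. *Glul* and *Rhbg*, which both act in ammonia clearance, had the largest differences, *Tbx3*, *Axin2* and *Rnf43* had intermediate ones, and *Lgr5*, *Oat*, *Slc1a2* and *Tcf7l2* lay within 0.14 of the median gene. In RNA from whole liver, fewer cells of a type and less RNA per cell cannot be told apart.

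**Figure D1:**
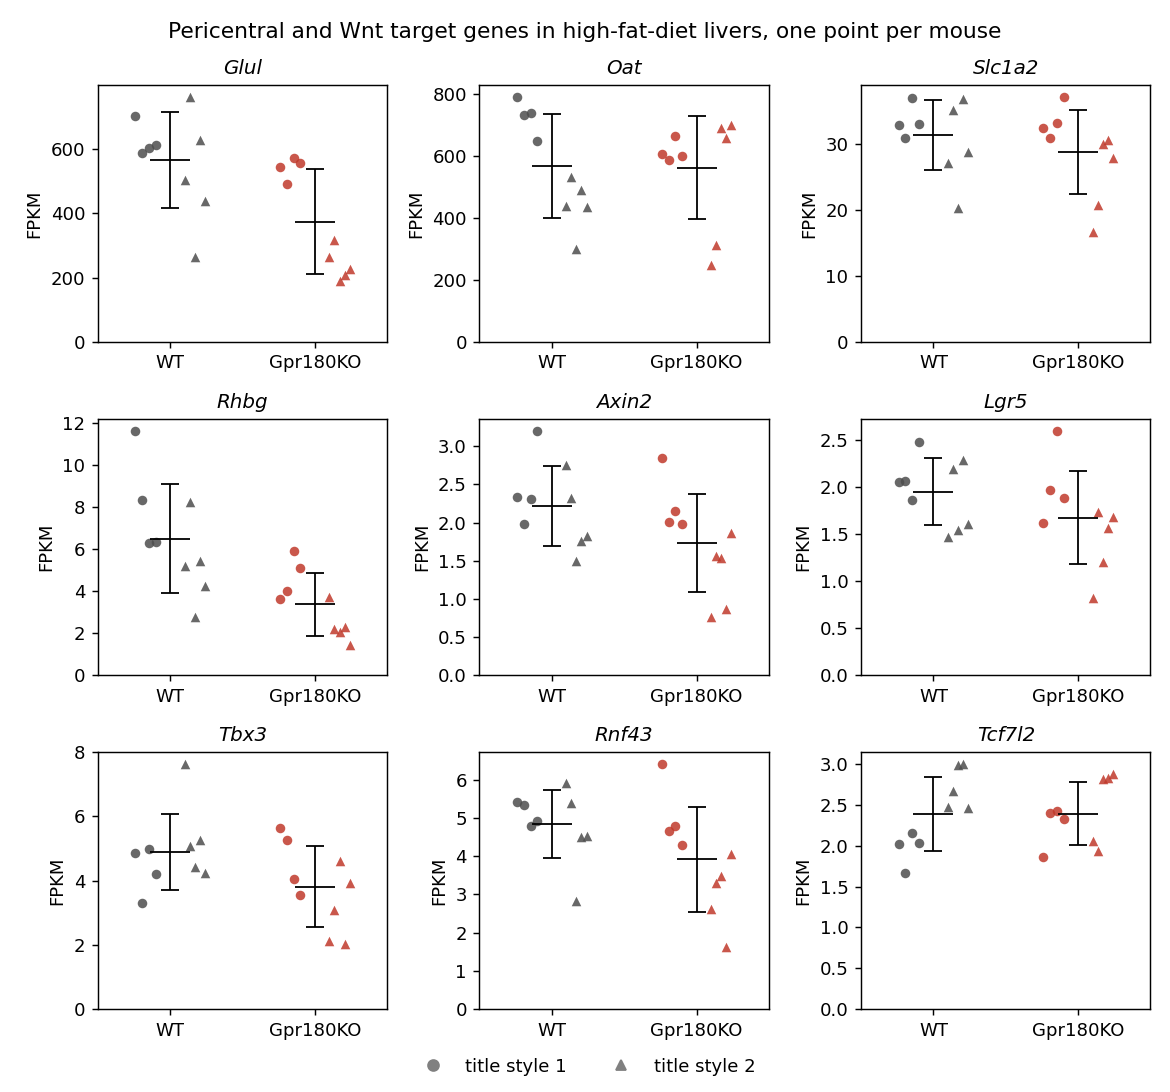
FPKM of the 9 genes in each liver (vertical axes from 0), wild-type in grey and *Gpr180*KO in red, circles for title style 1 and triangles for title style 2, with the mean and SD of the 9 livers per genotype in black. The *Gpr180*KO circles of *Glul* and *Rhbg* lie below the wild-type circles, and the *Gpr180*KO triangles of *Glul* lie between 188 and 316.6 FPKM.

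Glutamine synthetase, which joins ammonia to glutamate and marks the innermost ring of pericentral hepatocytes, is the product of *Glul* (chr1:153899945-153909714, mm10, as are all positions given below). *Glul* ranged from 263 to 762 FPKM in wild-type livers (median 603) and from 188 to 571 FPKM in *Gpr180*KO livers (median 316.6). Of the 9 wild-type livers, 6 lay above the highest *Gpr180*KO liver, and 3 *Gpr180*KO livers lay below the lowest wild-type liver, WThfd134. The means were 567 ± 149 and 374 ± 163 FPKM (SD, n = 9 each), so that *Gpr180*KO livers had 65.9% of the wild-type level. The log2 difference was -0.68 (standard error 0.25), and limma's adjusted p was 0.112. A two-sided exact permutation test on *Glul* alone gave p = 0.0243, and 0.0416 after median-of-ratios scaling. When mice were exchanged only within a title style, the exact permutation p was 0.00238. With the title style as a term in the limma fit, where 10.7% of all genes passed (9.62% as lower and 1.12% as higher), *Glul* passed as well (adjusted p = 0.0217), but not when median-of-ratios scaling was added (adjusted p = 0.0661, with 5.89% of all genes passing, 3.6% as lower and 2.3% as higher). Leaving out WThfd134 also brought it past the threshold (log2 difference -0.81, limma adjusted p = 0.0474), and without KOhfd51, when 7.38% of all genes passed, the difference was -0.63 (limma adjusted p = 0.141).

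The ammonia channel Rhbg, which lets ammonia cross the membrane of pericentral hepatocytes, is encoded by *Rhbg* (chr3:88242874-88254684). It ranged from 2.79 to 11.7 FPKM in wild-type livers (median 6.28) and from 1.46 to 5.94 FPKM in *Gpr180*KO livers (median 3.62). All 9 *Gpr180*KO livers lay below the wild-type mean and 4 lay below the lowest wild-type liver, again WThfd134. The mean fell from 6.51 ± 2.61 to 3.39 ± 1.51 FPKM (SD, n = 9 each), to 52.0% of the wild-type level. The log2 difference was -0.95 (standard error 0.27, limma adjusted p = 0.0465), or -0.82 relative to the median gene. The two-sided exact permutation test on *Rhbg* alone gave p = 0.00601, and between 0.00144 and 0.0124 with any 1 library left out. The limma call was close to its threshold. After median-of-ratios scaling the difference was -0.83 and the limma adjusted p 0.0838, whereas with the title style as a term that p was 0.00738 (0.0195 with both). Without KOhfd51 it was 0.0437. With 1 library left out the limma adjusted p ran from 0.0225 to 0.0996, and the call was lost without W317HFD, W318HFD, W319HFD, W320HFD, WThfd131, WThfd133, WThfd156, KO320HFD, KOhfd52, KOhfd53, KOhfd54 or KOhfd56. Without both KOhfd51 and KOhfd52 the log2 difference was -0.92 (limma adjusted p = 0.0854).

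Ornithine aminotransferase, which turns ornithine toward glutamate, is the product of *Oat* (chr7:132557475-132576398). *Oat* ranged from 299 to 789 FPKM in wild-type livers (median 531) and from 246 to 698 FPKM in *Gpr180*KO livers (median 606). The groups overlapped almost fully, with means of 566 ± 167 and 562 ± 166 FPKM (SD, n = 9 each). The log2 difference of -0.03 had a 95% interval from -0.48 to 0.43 (limma adjusted p = 0.949), and its sign turned after median-of-ratios scaling (0.10) and without KOhfd51 (0.11).

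*Slc1a2* encodes a glutamate transporter of the plasma membrane (chr2:102658683-102790784). It ranged from 20.3 to 36.9 FPKM in wild-type livers (median 32.9) and from 16.7 to 37.0 FPKM in *Gpr180*KO livers (median 30.6). Both extremes belonged to *Gpr180*KO livers, and the means were 31.3 ± 5.31 and 28.8 ± 6.35 FPKM (SD, n = 9 each). The log2 difference was -0.14, with a 95% interval from -0.43 to 0.16 (limma adjusted p = 0.580).

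Per length of transcript, *Glul* and *Oat* were the most abundant of the 9 genes in wild-type livers and differed by less than their SD, followed by *Slc1a2*. *Rhbg*, *Tbx3* and *Rnf43* came next at 4.84 to 6.51 FPKM, and *Tcf7l2*, *Axin2* and *Lgr5* last at 1.95 to 2.39 FPKM. The means of *Tbx3* and *Rnf43*, of *Tcf7l2* and *Axin2*, and of *Axin2* and *Lgr5* differed by less than either SD, and *Rhbg* lay above *Tbx3* by less than the SD of *Rhbg* but more than that of *Tbx3*. In *Gpr180*KO livers *Oat* stood above *Glul*, and *Rhbg* stood behind *Rnf43* (3.92 FPKM) and *Tbx3* (3.81 FPKM). The authors' confidence bounds allow an error of 1.18 to 2.82% for *Glul* and *Oat* in a single liver, much less than the spread between wild-type mice (coefficient of variation 26.3% and 29.6%). For *Rhbg*, *Axin2*, *Lgr5* and *Tcf7l2* the bounds span 11.9 to 33.3%, so more of the scatter of these low genes is measurement error. The *Glul* and *Oat* values lie above their own upper bound in all 18 livers, by a nearly constant factor over the midpoint (1.07 for *Glul* and 1.09 to 1.10 for *Oat*), which leaves ratios between livers unaffected.

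*Axin2*, a scaffold of the complex that destroys β-catenin and a feedback target of it (chr11:108920349-108950781), ranged from 1.49 to 3.20 FPKM in wild-type livers (median 2.31) and from 0.768 to 2.85 FPKM in *Gpr180*KO livers (median 1.86). KOhfd51 and KOhfd54 lay below the lowest wild-type liver, W320HFD lay above the highest *Gpr180*KO liver, and the other livers overlapped. The log2 difference was -0.40 (standard error 0.21, limma adjusted p = 0.268), and -0.28 both after median-of-ratios scaling and without KOhfd51. The exact permutation p was 0.0894, and 0.0407 when mice were exchanged within title styles.

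*Rnf43*, a ubiquitin ligase that removes Wnt receptors from the cell surface (chr11:87663087-87735539), ranged from 2.82 to 5.92 FPKM in wild-type livers (median 4.91) and from 1.62 to 6.41 FPKM in *Gpr180*KO livers (median 4.06). The highest value was that of KO319HFD, and the lowest that of KOhfd54. The log2 difference was -0.36 (standard error 0.20, limma adjusted p = 0.290). *Lgr5*, the receptor by which R-spondins counter that ligase (chr10:115450314-115587780), ranged from 1.47 to 2.48 FPKM in wild-type and from 0.824 to 2.60 FPKM in *Gpr180*KO livers. Its medians were 2.06 and 1.68 FPKM, the groups overlapped except for KOhfd51 and KOhfd53 below and KO321HFD above all wild-type livers, and the log2 difference was -0.24 (standard error 0.17, limma adjusted p = 0.392).

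The last 2 genes encode transcription factors. *Tbx3*, a T-box repressor induced by Wnt signaling in liver (chr5:119670669-119684601), ranged from 3.30 to 7.63 FPKM in wild-type livers (median 4.87) and from 2.03 to 5.66 FPKM in *Gpr180*KO livers (median 3.94). KOhfd51, KOhfd52 and KOhfd54 lay below all wild-type livers, and WThfd131 lay above all *Gpr180*KO livers. The log2 difference was -0.39 (standard error 0.19, limma adjusted p = 0.224). *Tcf7l2*, the TCF factor through which β-catenin acts on pericentral genes in hepatocytes (chr19:55741810-55933655), ranged from 1.67 to 3.0 FPKM in wild-type and from 1.87 to 2.88 FPKM in *Gpr180*KO livers, with medians of 2.47 and 2.41 FPKM. The means of 2.39 ± 0.46 and 2.40 ± 0.39 FPKM (SD, n = 9 each) gave a log2 difference of 0.01 with a 95% interval from -0.25 to 0.27 (limma adjusted p = 0.962).

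**Figure D2:**
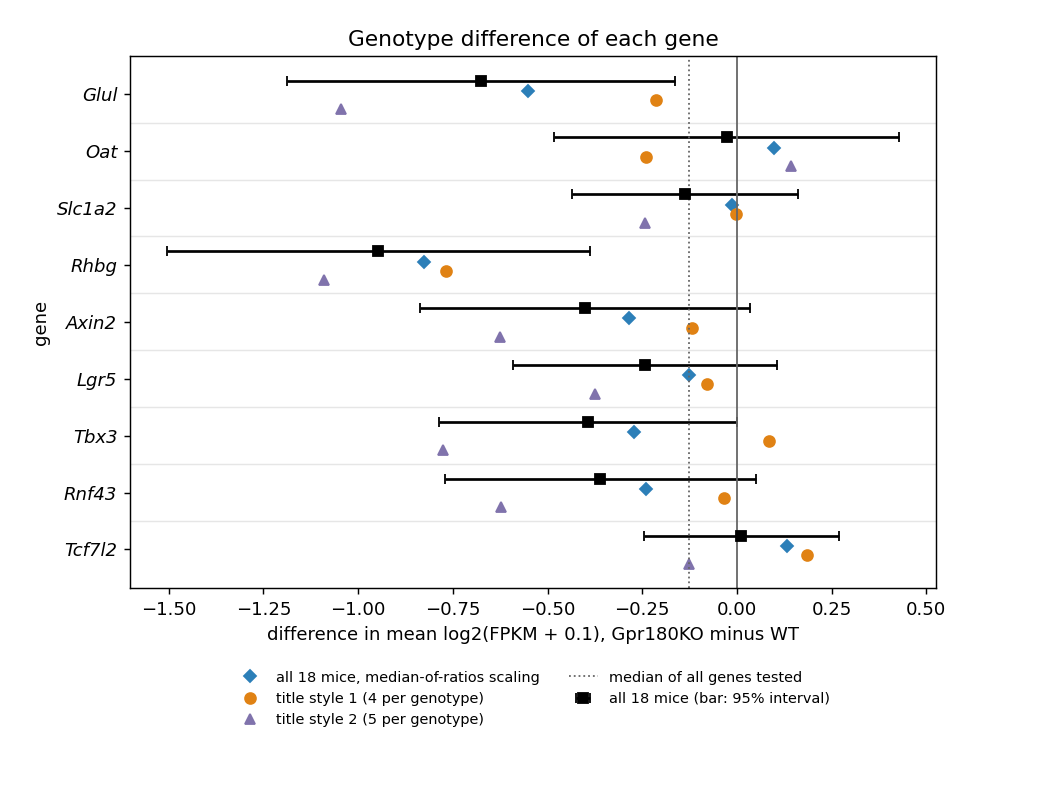
Difference in mean log2(FPKM + 0.1) between *Gpr180*KO and wild-type livers for each gene over all 18 mice (black squares, bars are 95% intervals), after median-of-ratios scaling (blue), and within title style 1 (orange circles) and title style 2 (purple triangles). The dotted line is the median of all genes, -0.13, and the bars of *Glul*, *Rhbg* and *Tbx3* do not reach 0 on this unadjusted scale.

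The estimated differences were not of one size in the title styles, though none of the 9 genes passed a test of this (below). None of the 9 genes passed in either style alone, where 6.61% of all genes passed in style 1 and 0.00937% in style 2. In style 1 the median of the 9 genes was -0.08 beside -0.07 for all genes, and in style 2 it was -0.62 beside -0.17. In style 1, *Glul* was 587 to 704 FPKM in the wild-type livers and 491 to 571 FPKM in the *Gpr180*KO livers, and *Rhbg* was 6.28 to 11.7 and 3.62 to 5.94 FPKM. These 2 genes did not overlap between the genotypes, as was true, with *Gpr180*KO lower, of 11.5% of all genes in style 1. Each had an exact permutation p of 0.0286 in style 1, the smallest that 4 against 4 livers can give, but that of *Glul* was 0.0857 with median-of-ratios scaling. The log2 differences in style 1 were -0.21 for *Glul* and -0.77 for *Rhbg*. That of *Oat* was -0.24, similar to *Glul* (exact permutation p = 0.0571). *Oat* was 647 to 789 FPKM in the wild-type and 585 to 665 FPKM in the *Gpr180*KO livers of style 1.

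In style 2, *Glul* was 263 to 762 FPKM in the wild-type and 188 to 316.6 FPKM in the *Gpr180*KO livers, a log2 difference of -1.04 (exact permutation p = 0.0238). *Rhbg* was 2.79 to 8.26 and 1.46 to 3.75 FPKM, a log2 difference of -1.09 (exact permutation p = 0.0159). WThfd134 lay inside the *Gpr180*KO range for both, so none of the 9 genes was free of overlap in style 2, beside 5.52% of all genes with *Gpr180*KO lower. *Tbx3* had a log2 difference of 0.09 in style 1 and -0.78 in style 2, and *Axin2* and *Rnf43* had -0.12 and -0.04 in style 1 and -0.63 and -0.62 in style 2. The difference between the styles was itself tested as an interaction, and none of the 9 genes passed, as was true of all genes (0.0% passed). The lowest unadjusted p-values were those of *Glul* (-0.83, limma unadjusted p = 0.0164, limma adjusted p = 0.588) and *Tbx3* (-0.86, limma unadjusted p = 0.0187, limma adjusted p = 0.589).

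Within style 2, *Glul* and *Oat* parted company between *Gpr180*KO mice. KOhfd53, KOhfd54 and KOhfd56 had 188, 206 and 228 FPKM of *Glul*, the lowest of all livers, with 689, 658 and 698 FPKM of *Oat*, above every style 2 wild-type liver. These *Oat* values lay within the wild-type range of style 1 (647 to 789 FPKM). Wild-type livers of style 2 had 299 to 531 FPKM, so wild-type *Oat* did not overlap between the styles. KOhfd51 and KOhfd52 had 265 and 316.6 FPKM of *Glul* and 246 and 311 FPKM of *Oat*, so both genes were low in them. The ratio of *Glul* to *Oat* does not depend on scaling between libraries. It was 0.80 to 1.43 in the 9 wild-type livers, 0.84 to 0.93 in the style 1 *Gpr180*KO livers, and 1.02 and 1.076 in KOhfd52 and KOhfd51. In KOhfd53, KOhfd54 and KOhfd56 it was 0.27, 0.31 and 0.33, apart from all others. The wild-type liver WThfd134 was the lowest of its genotype for 6 of the 9 genes, *Glul*, *Oat*, *Slc1a2*, *Rhbg*, *Axin2* and *Rnf43*, while its *Tcf7l2* (2.99 FPKM) was near the top. Among *Gpr180*KO livers, KOhfd51 was the lowest for 4 genes, *Oat*, *Slc1a2*, *Axin2* and *Lgr5*.

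**Figure D3:**
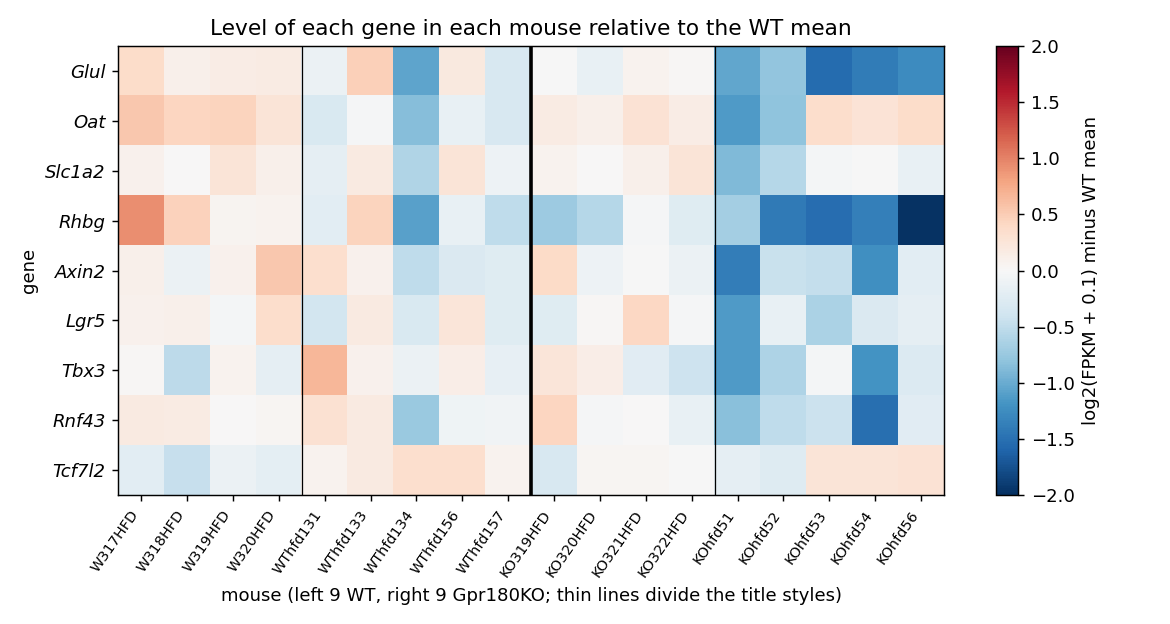
Level of each of the 9 genes in each liver as the difference of log2(FPKM + 0.1) from the wild-type mean, from blue (lower) to red (higher); the thick line divides wild-type from *Gpr180*KO livers and thin lines divide the title styles. KOhfd53, KOhfd54 and KOhfd56 are blue for *Glul* and *Rhbg* and pale red for *Oat*, and WThfd134 is blue for all genes but *Tcf7l2*.

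The 9 genes did not vary between mice as 1 unit. After each genotype was centred on its own mean, Pearson's r over the 18 livers lay between -0.53 and 0.87 for the 36 pairs (median 0.42, 30 positive), and 10 pairs passed at an adjusted permutation p of 0.05 (8 with Spearman's rho, and 8 with r after median-of-ratios scaling). When each title style was centred as well, 2 pairs passed, and the median r was 0.26. With median-of-ratios scaling the median r was 0.28. The share of passing pairs among all genes is not given here, so the count of 10 has no background beside it. *Axin2* and *Rnf43*, both feedback targets, had r = 0.87 and rho = 0.86 (adjusted permutation p = 0.00108 and 0.00072), 0.84 without the 2 livers farthest from the median, and 0.66 and 0.86 within styles 1 and 2. Centred on style, r was 0.78 (adjusted permutation p = 0.0229). *Tbx3* went with both, at r = 0.75 with *Axin2* (rho = 0.61, adjusted permutation p = 0.0106 and 0.0523) and 0.73 with *Rnf43* (rho = 0.66, adjusted permutation p = 0.0106 and 0.0428). Without the 2 farthest livers these were 0.50 and 0.53. Within styles 1 and 2 they were 0.65 and 0.87 with *Axin2* and 0.73 and 0.79 with *Rnf43*, and centred on style 0.77 and 0.71 (adjusted permutation p = 0.0515 and 0.0588).

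*Glul* and *Rhbg* had r = 0.85 and rho = 0.81 (adjusted permutation p = 0.00126 and 0.00396), 0.79 without the 2 farthest livers and 0.51 and 0.75 within styles 1 and 2. Centred on style, r was 0.71 (adjusted permutation p = 0.0588), and 0.44 without the 2 farthest livers. *Oat* and *Slc1a2* had r = 0.84 (adjusted permutation p = 0.00804) but rho = 0.45 (adjusted permutation p = 0.171), with 0.63 left without the 2 farthest livers. Within style 2 r was 0.87, within style 1 -0.41, and centred on style 0.89 (adjusted permutation p = 0.0229). *Tcf7l2* had no pair that passed before scaling, and its r with *Glul* and *Rhbg* was -0.46 and -0.53 (rho = -0.41 and -0.55, adjusted permutation p = 0.114 and 0.0753 for r). After median-of-ratios scaling both of these pairs passed, each at r = -0.60 (adjusted permutation p = 0.0474).

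The other 5 pairs that passed crossed these groups. *Glul* had r = 0.74 with *Rnf43* (rho = 0.77, adjusted permutation p = 0.00945 and 0.0133), 0.65 with *Axin2* (rho = 0.66, 0.0262 and 0.0380), 0.65 with *Lgr5* (rho = 0.74, 0.0186 and 0.0124) and 0.60 with *Slc1a2* (rho = 0.73, 0.0473 and 0.0133), and *Slc1a2* had r = 0.69 with *Lgr5* (rho = 0.57, 0.0186 and 0.0646). Of these 5, only *Glul* with *Rnf43* passed after median-of-ratios scaling (adjusted permutation p = 0.0245). Without the 2 farthest livers they were, in the same order, 0.74, 0.66, 0.58, 0.57 and 0.39. They lay between 0.105 and 0.70 within style 1 and between 0.33 and 0.67 within style 2. Centred on style none of the 5 passed, and *Glul* with *Rnf43* had r = 0.49 (adjusted permutation p = 0.486).

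**Figure D4:**
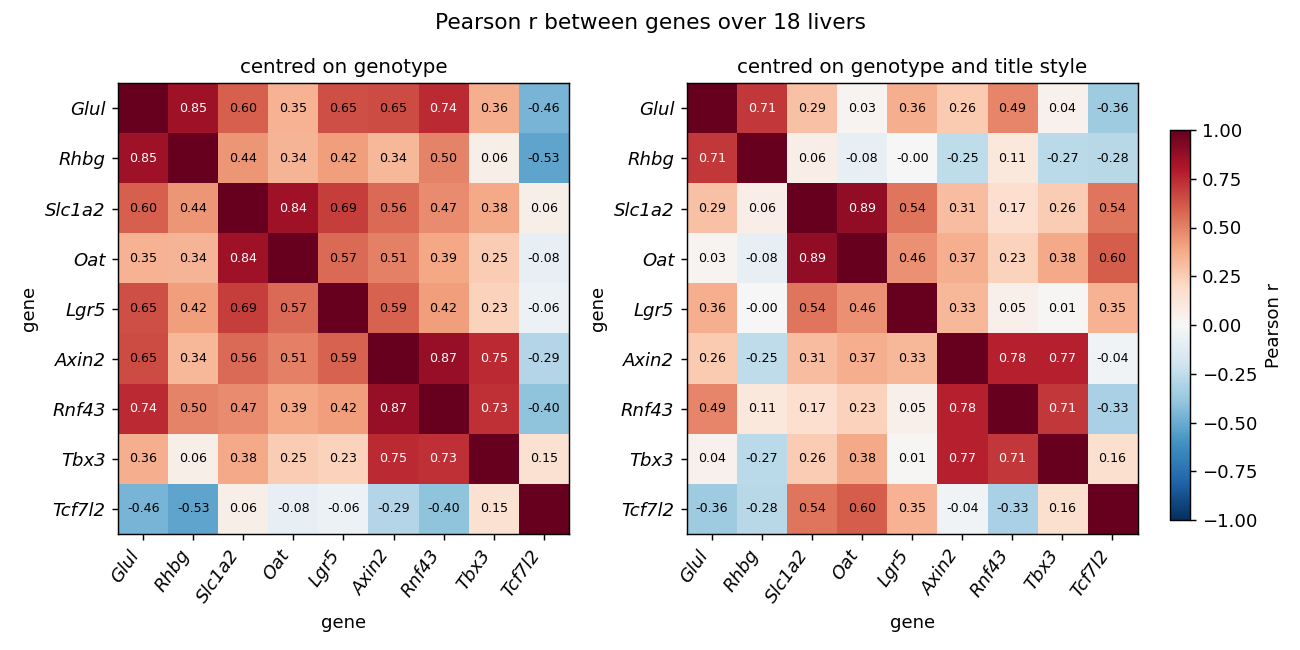
Pearson's r between the 9 genes over 18 livers after centring each genotype (left) or each genotype within each title style (right), from blue (-1) to red (1), with the value in each cell. *Axin2*, *Rnf43* and *Tbx3* stay above 0.7 with each other in both panels, as do *Glul* with *Rhbg* and *Oat* with *Slc1a2*.

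Over all 10783 genes, those closest to *Glul* in the same genotype-centred r were *Cpeb1* (0.94), *Lpin3* (0.94), *Cs* (0.94), *Rdh9* (0.94) and *Clcn7* (0.93), each over 18 livers that share their libraries and titles. *Rhbg* ranked 141 on this list, *Rnf43* 599, *Axin2* 1267, *Lgr5* 1298, *Slc1a2* 1733, *Tbx3* 3869, *Oat* 4012 and *Tcf7l2* 10186. Many other genes thus lay closer to *Glul* than *Axin2*, *Lgr5* and *Slc1a2* did, although the pairs of these genes with *Glul* passed above. Those closest to *Axin2* were *Top3a* (0.94), *Rph3al* (0.91), *Dcbld1* (0.90), *Rnf43* (0.87, rank 4) and *Copb2* (0.85).

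Other genes of pericentral hepatocytes were mixed. Of 20 genes listed, all tested, 2 fell, 1 rose and 17 did not pass, beside 4.33% of all genes that passed as lower and 0.454% as higher, and the median log2 difference was -0.08. *Slc22a3*, an organic cation transporter, fell from 1.88 to 1.01 FPKM (-0.82, limma adjusted p = 0.0324), and *Slc13a3*, a dicarboxylate transporter, from 12.8 to 6.61 FPKM (-1.15, limma adjusted p = 0.0462). *Cyp1a2*, a cytochrome P450 of xenobiotic and caffeine metabolism, rose from 83.6 to 110 FPKM (0.42, limma adjusted p = 0.0399). After median-of-ratios scaling *Cyp1a2* alone passed (0.55), with *Slc22a3* at a limma adjusted p of 0.0501 and *Slc13a3* at 0.0699, and with the title style as a term 6 fell and 1 rose (9.62% and 1.12% of all genes), but 3 fell and 3 rose with both (3.6% and 2.3%). With 1 library left out, *Slc22a3* lost its call without W317HFD, W318HFD, WThfd133, WThfd156, KOhfd52, KOhfd53 or KOhfd54 (highest limma adjusted p = 0.0748). *Slc13a3* kept its call only without WThfd134, WThfd157 or any of the 4 style 1 *Gpr180*KO livers (highest limma adjusted p = 0.0969), and *Cyp1a2* only without WThfd157, KO319HFD, KO320HFD, KO322HFD or KOhfd51 (0.0833).

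Periportal genes, which belong to the other end of the lobule, had a median log2 difference of 0.23. Of 19 tested, 4 rose and 1 fell in the limma fit, beside 0.454% of all genes that passed as higher and 4.33% as lower. After median-of-ratios scaling 5 rose and 1 fell, beside 1.03% and 1.57% of all genes. *Hal*, the first enzyme of histidine breakdown, rose from 68.2 to 117 FPKM (0.77, limma adjusted p = 0.0125), *Sds*, which makes pyruvate from serine, from 67.2 to 119 FPKM (0.79, limma adjusted p = 0.0166), and *Igfbp2*, a secreted binder of insulin-like growth factors, from 136 to 263 FPKM (0.96, limma adjusted p = 0.0118). The fourth, *Asl* of the urea cycle, named after its values were seen, rose from 174 to 242 FPKM (0.47, limma adjusted p = 0.0170). *Hsd17b13*, a lipid droplet enzyme, fell from 534 to 367 FPKM (-0.54, limma adjusted p = 0.0152). *Hal*, *Sds*, *Igfbp2* and *Hsd17b13* passed in each of the 18 fits without 1 library.

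The 13 tested genes of glutamine and ornithine handling outside the 9 had a median log2 difference of 0.11. Of these, 1 gene, not reported here, passed as lower and 0 passed as higher, beside 4.33% and 0.454% of all genes. The liver glutaminase *Gls2*, which releases the ammonia that *Glul* fixes downstream, was named after its values were seen. It was 118 and 192 FPKM and did not pass (0.66, limma adjusted p = 0.0517). After median-of-ratios scaling it passed as higher (limma adjusted p = 0.0465), as did 1.03% of all genes.

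**Figure D5:**
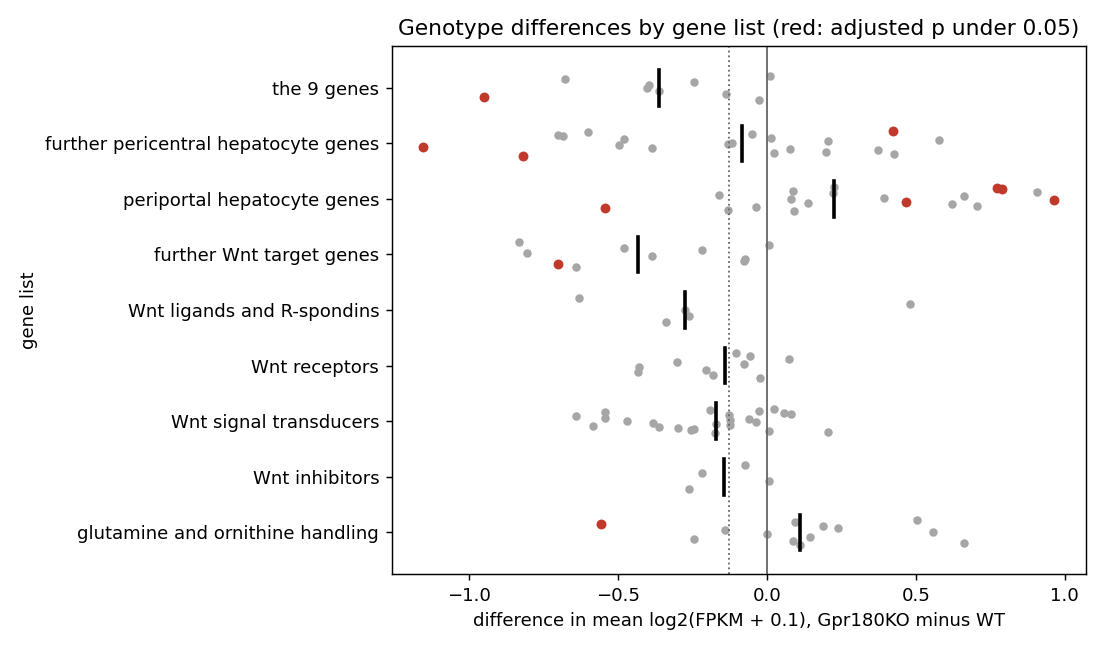
Difference in mean log2(FPKM + 0.1) between *Gpr180*KO and wild-type livers for every tested gene of each list, with genes past an adjusted p of 0.05 in red and list medians as black bars; the dotted line is the median of all genes. The periportal list has its median at 0.23 and 4 red points above 0, and the 9 genes have a median of -0.36.

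Along the Wnt pathway itself no ligand, receptor, transducer or inhibitor tested passed in the limma fit. This held for 5 of 25 ligands, R-spondins and their secretion factors (the other 20 were under the minimum, 7 of them listed at 0 in every liver), for 10 of 17 receptors, 24 of 26 transducers and 4 of 17 inhibitors, with median log2 differences of -0.27, -0.14, -0.17 and -0.14 beside the -0.13 of all genes. With the title style as a term, 1 ligand, 1 receptor and 2 transducers passed as lower, beside 9.62% of all genes, and none with median-of-ratios scaling added. *Wnt2*, a ligand made by liver endothelium, ranged from 0.950 to 3.81 FPKM in wild-type and from 0.680 to 3.19 FPKM in *Gpr180*KO livers (log2 difference -0.34, limma adjusted p = 0.525). *Rspo3*, the R-spondin of the central vein, ranged from 1.72 to 4.22 and from 1.79 to 3.87 FPKM (-0.27, limma adjusted p = 0.344). Both overlapped almost fully. *Wnt9b*, the central vein ligand, had means of 0.175 and 0.163 FPKM and was under the minimum.

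Of 10 further Wnt target genes tested, several also stand on the lists above. The *Gpr180*KO mean was the lower for 9 of the 10, beside 77.1% of all genes, and the median log2 difference was -0.43 beside -0.13. Only *Sox9* passed (1.44 and 0.859 FPKM, -0.70, limma adjusted p = 0.0447), beside 4.33% of all genes that passed as lower. *Sox9*, a transcription factor of bile duct cells, also stands on the bile duct list below. It did not pass after median-of-ratios scaling (limma adjusted p = 0.120) and passed in 4 of the 18 fits without 1 library, those without W319HFD, WThfd157, KOhfd51 or KOhfd56. With the title style as a term, 6 of the 10 passed as lower, beside 9.62% of all genes, and with median-of-ratios scaling added 2 did, beside 3.6%.

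Some markers of other liver cells differed between the genotypes too. Over all genes, 4.33% passed as lower, 0.454% passed as higher and 77.1% had a lower *Gpr180*KO mean. Of 8 stellate cell and fibroblast markers all had a lower mean and 3 fell (*Dcn* -0.68, *Col1a1* -1.99 and *Pdgfrb* -0.82). The summed level was 139 to 242 FPKM in wild-type and 79.9 to 128 FPKM in *Gpr180*KO livers. Most of that sum was *Dcn*, with means of 144 and 89.7 FPKM. Of 3 tested bile duct markers 2 fell (*Sox9*, and *Spp1* -1.96), and 4 more were under the minimum. The sums of 47.9 to 232 and 21.98 to 55.4 FPKM were mostly *Spp1*, with means of 133 and 30.4 FPKM. Of 7 macrophage markers *Cd68* fell (-0.69), with sums of 131 to 293 and 149 to 216 FPKM. With 1 library left out, *Cd68* lost its call in 4 of the 18 fits, while *Dcn*, *Col1a1*, *Pdgfrb* and *Spp1* kept theirs in all 18. Without both KOhfd51 and KOhfd52 *Cd68* did not pass (limma adjusted p = 0.057). None of 8 endothelial markers passed (median -0.20, sums of 101 to 157 and 88.3 to 142 FPKM), nor did any of 8 tested hepatocyte markers (median 0.19), whose sums of 17796 to 21620 and 19248 to 34141 FPKM (the highest in KOhfd51) leave out *Alb*, which had failed values. All 8 lymphocyte markers were under the minimum, with sums of 1.61 to 5.39 and 1.76 to 3.59 FPKM. No list was at 0 throughout. The part of these cells in the values of the 9 genes was not tested.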

How the data were processed

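Per the labels and the study's methods, the authors extracted total RNA from whole liver, prepared poly(A) libraries with the TruSeq kit, aligned single reads to mm10 (GRCm38) with TopHat and deposited 1 table of FPKM values with confidence bounds per mouse. The methods give the FPKM as output of that alignment application, and its annotation is not given in the sources used here. Read totals are not in the tables, so precision was taken from the authors' bounds.

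Each table has 23847 entries; entries sharing a symbol (252 symbols) were summed, and 194 symbols with a value marked as failed or as low data in any library were dropped. Genes with a mean of at least 1 FPKM were compared with limma 3.58.1 (R 4.3.3; lmFit, eBayes with trend) on log2(FPKM + 0.1). Single genes were also compared by exact permutation over 48620 splits, and correlations by 100000 permutations within genotype. The scripts were tested on simulated data. From other lists, genes past the threshold were named, at most 4 by lowest p, with all 3 central vein Wnt genes and the 5 genes closest to *Glul* and *Axin2*. One gene that this rule names is not reported here. The 9 genes and the lists were chosen with earlier results of these data known. Alternatives were other pseudocounts, minimums, scalings, library weights, the title style as a block or alone, and each library left out. Promoter windows came from RefSeq, GRCm38.p6. The mice are separate animals. ND livers were not analysed here.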

Additional observations from a re-analysis of the deposited data

Results flagged for a closer look

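In 20 groups of 9 livers (10 genes in each genotype), the highest and lowest values were compared with the rest by Dixon's ratio of gap to range on FPKM, which exceeds its 95% critical value by chance in about 1 of 20 groups. *Tbx3* in WThfd131 lay above the other wild-type livers (7.63 FPKM, ratio 0.544). *Rnf43* in WThfd134 lay below the other wild-type livers (2.82 FPKM, ratio 0.540).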

How the results depend on the processing

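The number of genes called over all genes was 846 and 242 with minimums of 0.1 and 5 FPKM, 280 with median-of-ratios scaling, 1158 with the title style as a block, 1 in style 2 alone (0 with median-of-ratios scaling as well), 1330 with weights per library, 309 without KOhfd51 and KOhfd52, and 136 to 926 with 1 library left out. Of the 9 genes, 0 passed with a minimum of 5 FPKM, no minimum, median-of-ratios scaling (over all mice, in style 1 or in style 2), either style alone, or without KOhfd51 and KOhfd52. With the style as a block 2 passed, and with 1 library left out 0 to 2. The median log2 difference of the 9 genes stayed between -0.46 and -0.24 with 1 library left out.

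For the lists, calls in further pericentral genes numbered 1 with a minimum of 5 FPKM and with median-of-ratios scaling, 7 with the style as a block, 6 with both, 0 in style 2 or without KOhfd51 and KOhfd52, and 0 to 4 with 1 library left out. Periportal calls were 0 in style 2 alone with either scaling, 9 with weights per library, 8 with median-of-ratios scaling and the block or in style 1, and 5 to 8 with 1 library left out. Further Wnt targets gave 0 with a minimum of 5 FPKM, median-of-ratios scaling, style 2 alone, or without KOhfd51 and KOhfd52, 6 with the block, 2 in style 1 with either scaling and with median-of-ratios scaling and the block, and 0 to 2 with 1 library left out. Glutamine and ornithine genes gave 2 with a minimum of 0.1 FPKM or the block, 0 with a minimum of 5 FPKM or style 2 alone, 3 in style 1, with weights per library or with median-of-ratios scaling and the block, 2 in style 1 with median-of-ratios scaling, and 0 to 2 with 1 library left out. Wnt ligands gave 1 with a pseudocount of 1, TPM scaling, the block, or weights per library, and receptors 1 and transducers 2 with the block. Transducers and inhibitors gave 1 each in style 1 with median-of-ratios scaling. With 1 library left out, ligands and receptors gave 0 to 1 and transducers 0 to 2. Pairs of the 9 genes that passed numbered 2 when centred on style.

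The sign turned for *Oat* (0.10 with median-of-ratios scaling, with or without the block, 0.14 in style 2, 0.31 there with median-of-ratios scaling, 0.24 without KOhfd51 and KOhfd52, and -0.13 to 0.11 with 1 library left out), *Tcf7l2* (-0.022 with TPM scaling, -0.13 in style 2, and -0.046 to 0.055 with 1 library left out), *Tbx3* in style 1 (0.085, and 0.15 with median-of-ratios scaling), *Slc1a2* (0.064 in style 1 with median-of-ratios scaling, 0.033 without KOhfd51 and KOhfd52) and *Rnf43* (0.030 in style 1 with median-of-ratios scaling). None of these passed the test. The cause was not tested. Median-of-ratios scaling combined with the style, and leaving out KOhfd51 with KOhfd52, were chosen after seeing the data. No paired analysis was possible because the labels pair no mice across genotypes. The authors' bounds were up to 33.3% for *Rhbg* and up to 26.6% for the lowest genes, *Axin2*, *Lgr5* and *Tcf7l2*. With these bounds, and at 4 or 5 mice per genotype in a style, small differences were not detectable.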
